A study of Mus musculus with 2 samples.

Results

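The interferon regulatory factors (IRFs) are transcription factors that share a DNA-binding domain with a set of conserved tryptophans and bind interferon-stimulated response elements. The gene family was examined through every probe set whose annotation named exactly 1 gene and that gene was Irf1, Irf2, Irf3, Irf4, Irf5, Irf7, Irf8 or Irf9. These 8 genes, of 18193 genes named on the array, were covered by 14 probe sets, a probe set being a group of short probes for 1 transcript. The data come from 1-colour Affymetrix arrays of mouse T cells, 1 of them hybridised with RNA of control T cells and the other with RNA of T cells after exposure to RPE, the retinal pigment epithelium that supports the photoreceptors. Both samples were labelled as male mice of a C57 BL/6 background aged 6 weeks, and the control was titled CD4 T cells. The exposed sample was titled T cells but carried a tissue entry naming primary cultured RPE. The stimulation of the T cells, the length of exposure, the separation from the epithelium and the number of mice were not stated in the labels. The study asked how RPE acts on Th17 cells, the helper T cells that make interleukin-17.

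With a single array in each group no spread between samples could be measured and no test was made, so precision is limited by the number of arrays. A signal is the deposited linear intensity, and a difference is the log2 signal in RPE-exposed cells minus that in control cells. The floor was the median of each array (15.9 on that of control cells and nearly the same on the other). Signals under the floor were set to it, and a gene above it on neither array was treated as not measured. For a gene above it on 1 array only, the difference is a bound. Summed signals used the deposited values. Genes were counted by size, at 1.5-fold and at 2-fold. As descriptions of scale, the pooled SD of differences between probe sets of the same gene was 0.24 (4767 genes). The difference of each member is set beside the central 95% of differences among genes of like level. Over the 11021 genes that passed the floor on either array, the median difference was -0.0096. T-cell markers gave similar signals on both arrays, with Cd3e, a chain of the T-cell receptor complex, at 770.9 and 763.9. The RPE markers Rpe65 (5.3 and 2.3) and Tyrp1 (9.0 and 3.6) were under the floor on both arrays, as were 8 of 10 RPE markers in all.

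Members of the family divide by role. Irf4 and Irf8 are close relatives found mainly in lymphocytes and myeloid cells, and they bind DNA together with partners such as PU.1 or AP-1 proteins of the BATF family; IRF4 is induced by the T-cell receptor and is needed for several helper T-cell fates, Th17 among them. IRF9 is the DNA-binding part of ISGF3, the STAT-containing complex that carries the type I interferon signal, and IRF1 and IRF2 act as an interferon-induced activator and its antagonist on the same elements. IRF3, IRF5 and IRF7 lie in the cytoplasm until sensors of foreign nucleic acid cause their phosphorylation, and IRF3 and IRF7 then switch on interferon genes.

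The sequence before the start site of the 2 members with the lowest differences, Irf8 and Irf4, is shown because interferon-gamma and T-cell receptor signals act on these genes in part through their promoters. Start sites and sequences are those of RefSeq on GRCm38.p6. All 8 members were matched there, with 11 start sites. Capitals mark GAS-type motifs, the palindromic letters TTCNNNGAA bound by STAT dimers, and, in Irf2 only, the IRF element, which is a pair of GAAA runs 2 bases apart, both searched on either strand in the 250 bases before a start site. Each run below reads 5′ to 3′ on the plus strand, on which these 4 genes lie.
Irf8, chr8:120736108-120736357: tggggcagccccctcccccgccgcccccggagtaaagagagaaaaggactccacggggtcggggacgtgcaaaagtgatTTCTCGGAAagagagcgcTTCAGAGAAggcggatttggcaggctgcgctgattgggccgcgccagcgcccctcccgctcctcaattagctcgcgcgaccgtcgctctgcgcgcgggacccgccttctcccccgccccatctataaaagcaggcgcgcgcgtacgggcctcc
Irf4, chr13:30748983-30749232: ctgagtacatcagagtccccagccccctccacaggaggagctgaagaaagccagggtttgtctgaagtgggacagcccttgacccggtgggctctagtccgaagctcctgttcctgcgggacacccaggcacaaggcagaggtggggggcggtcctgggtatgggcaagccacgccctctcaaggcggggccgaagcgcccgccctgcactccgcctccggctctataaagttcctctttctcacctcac
Irf1, chr11:53769899-53769957: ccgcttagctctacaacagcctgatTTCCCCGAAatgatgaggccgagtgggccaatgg
Irf2, chr8:46739495-46739554: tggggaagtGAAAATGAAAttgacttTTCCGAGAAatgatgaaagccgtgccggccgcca

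Irf8 carried 2 GAS-type motifs, 171 to 163 and 153 to 145 bases before its first start site, and Irf1 and Irf2 carried 1 each, at 90 to 82 and 224 to 216 bases. Of 32851 mouse promoter windows of this length, 7.02% held such a motif. The IRF element stood only in the window of Irf2, 241 to 232 bases before the start, and in 2.98% of all windows. A kappaB motif, the site of NF-kappaB, lay in the windows of Irf1 and Irf2, just before the start site, and in 7.25% of all windows. No window of Irf3, Irf4, Irf5, Irf7 or Irf9 held these letters in any of the 3 forms. The motif-bearing members did not share a direction: Irf8 was lower in exposed cells, Irf2 higher, and Irf1 nearly level.

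Within the family, Irf8 and Irf4 were lower in RPE-exposed T cells, Irf2, Irf9 and Irf7 had positive differences, and Irf1, Irf3 and Irf5 had small negative ones. Each of the 8 genes passed the floor on both arrays. At 1.5-fold, 1 member (Irf8) was lower, against 3.89% of all genes compared, and none was higher, against 3.16%. No member differed by 2-fold, a size reached by 1.06% of genes in either direction. The median over the 8 members was -0.098. Positive differences were found in 3 of 8 members and in 48.2% of all genes, so the family did not move in a single direction.

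**Figure D1:**
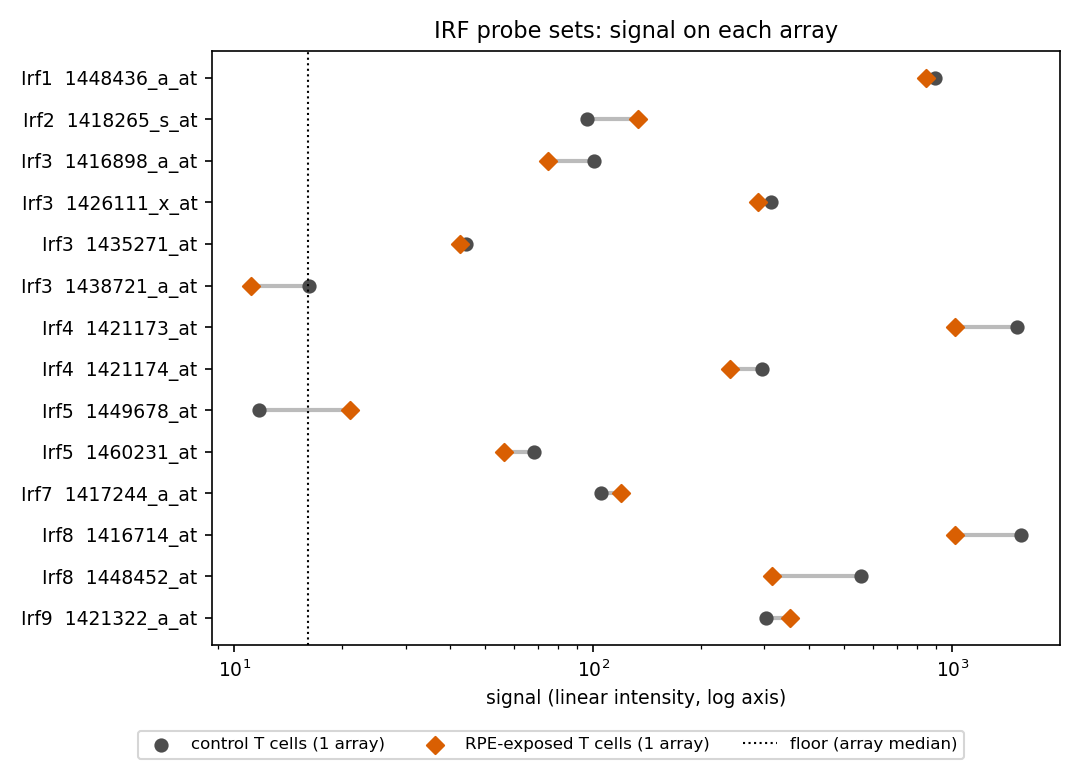
Signal of each of the 14 IRF probe sets on the control array (grey circles) and the RPE-exposed array (orange diamonds), on a log axis of linear intensity, with the floor as a dotted line. The widest gaps among probe sets well above the floor are those of Irf8 and of Irf4 probe set 1421173_at, all lower in exposed cells.

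Irf8, which directs dendritic-cell and macrophage development and is also induced in activated T cells and B cells, had the lowest difference. Probe set 1416714_at, which represents it, gave signals of 1557.2 (control) and 1015.8 (exposed), 1.53-fold lower (-0.62). Its other probe set, 1448452_at, gave 558.3 and 315.0, 1.77-fold lower (-0.83). Both lay under the range of genes of like level, which ended at -0.40 and -0.41. The mean over both was -0.72 ± 0.15 (SD, 2 probe sets). Among the 11021 genes compared, counted from the lowest difference upward, Irf8 stood at rank 375.

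Irf4, the family member most tied to Th17, Th2 and follicular helper differentiation, was the next lowest. Probe set 1421173_at gave signals of 1516.7 and 1015.6, 1.49-fold lower (-0.58), just short of 1.5-fold and under its like-level range of -0.40 to 0.33. Probe set 1421174_at gave 295.5 and 240.2, 1.23-fold lower (-0.30), within its range of -0.46 to 0.42. Both probe sets were thus lower in exposed cells, but by unequal amounts, with a mean of -0.44 ± 0.20 (SD, 2 probe sets). Irf4 stood at rank 444 from the lowest.

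The lower Irf8 and Irf4 signals stood beside lower signals of genes from other leukocytes that express both factors. Among 11 measured B-cell markers, 10 had negative differences, with a median of -0.54, and 5 were at least 1.5-fold lower, against 3.89% of all genes compared. The B-cell receptor component gene Cd79a went from 139.3 to 95.6, and the summed signal of the 12 B-cell markers on the array went from 2411.4 to 1585.7. Of 16 macrophage and dendritic-cell markers above the floor, 14 were negative and 6 at least 1.5-fold lower, with a median of -0.49. Their summed signal over 20 genes went from 4765.4 to 3575.1, but 85.5% of the control sum came from 4 antigen-presentation genes of class II (H2-Aa, H2-Ab1, H2-Eb1 and Cd74), which B cells also express strongly. The sum of the other 16 markers went from 690.2 to 474.1, and the 12 of them above the floor had a median of -0.49. Of these 12, 10 were negative and 4 at least 1.5-fold lower. Tyrobp (136.1 and 79.0) left its like-level range, Lyz2 and Flt3 did not, and Lyz1 (41.3 and 7.5) was above the floor in control cells only. Csf1r and Adgre1 had positive differences. Defining myeloid markers were dim or under the floor, with Csf1r, the macrophage growth-factor receptor, at 29.1 and 31.4, Itgax, encoding CD11c, at 19.4 and 17.0, and 4 genes (Itgam, Xcr1, Siglech and Cd209a) under it on both arrays. No marker of either list was at 0, and only Cr2 of the B-cell list was under the floor on both arrays. The 3 plasma-cell markers, genes of cells with high Irf4, were negative too (median -0.48), but none was 1.5-fold lower. Jchain (-0.20) and Sdc1 (-0.51, at 23.8 and 16.7, near the floor) lay within their like-level ranges, and Mzb1 (-0.48) lay just under its own. The part of B cells, plasma cells and myeloid cells in the Irf8 and Irf4 differences was not tested, and in bulk RNA fewer cells of a type cannot be told apart from less RNA per cell. T-cell markers (7 genes) had a median of -0.0081, and NK-cell markers (3 genes) of 0.016. Of the NK-cell genes, Nkg7, a cytotoxic granule gene, gave 1005.2 and 1016.3 (0.016), Eomes, a transcription factor gene, gave 101.0 and 108.9 (0.11), and Ncr1, an NK-cell receptor gene near the floor, gave 21.5 and 17.8 (-0.27). These 3 genes differed in direction and give no level for NK cells.

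**Figure D2:**
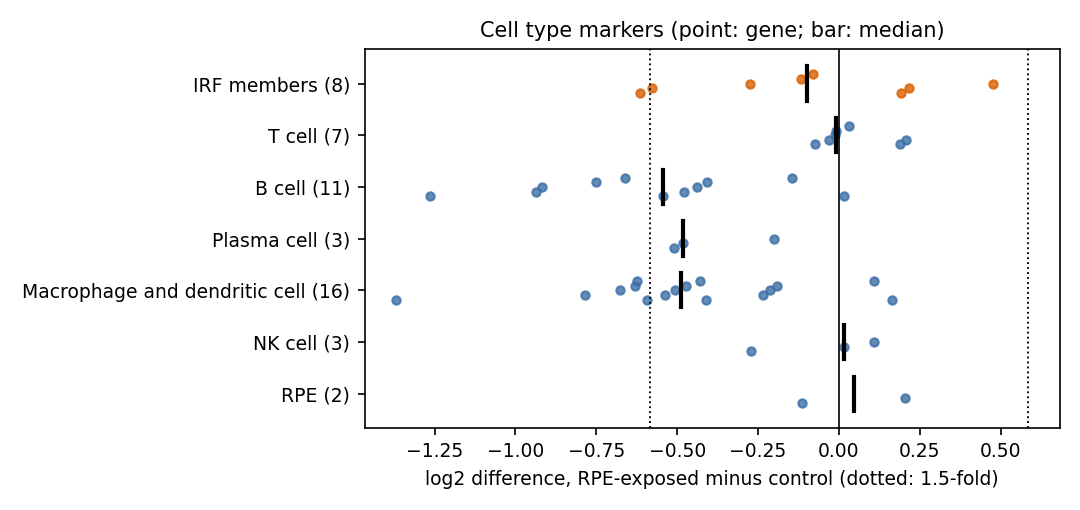
Log2 difference (RPE-exposed minus control) of the 8 IRF members and of marker genes of 6 cell types; each point is a gene measured on either array, black bars are medians, dotted lines are 1.5-fold, and the number of genes is in parentheses. B-cell, plasma-cell and myeloid markers centre near -0.5, where Irf8 and Irf4 also lie, while T-cell markers centre near 0. The plasma-cell median of -0.48 rests on 3 genes, none of them 1.5-fold lower. The NK-cell median of 0.016 rests on 3 genes, of which Ncr1, near the floor, is at -0.27.

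Irf9, the subunit through which ISGF3 recognises its DNA element, gave signals of 303.5 (control) and 353.0 (exposed) (0.22, like-level range -0.47 to 0.43, 1 probe set). Irf7, the amplifier of type I interferon production and itself an ISGF3 target, had signals of 104.8 and 119.8 (0.19, range -0.68 to 0.52, 1 probe set). Both were higher in exposed cells, by 1.16-fold and 1.14-fold, well inside the spread of genes of their level.

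Irf2, the constitutive antagonist of Irf1, had the highest difference. Its single probe set, 1418265_s_at, gave 95.9 and 133.4, 1.39-fold higher (0.48), just above its like-level range of -0.60 to 0.47. Irf1, an early target of interferon-gamma through its GAS site, gave 895.5 and 847.7 (-0.08, range -0.40 to 0.33, 1 probe set). The antagonist was thus higher beside a nearly level Irf1. The ending of the Irf2 probe set name marks probes shared by several transcripts.

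Irf3 and Irf5, which are activated by phosphorylation rather than by their own induction, had small differences. Irf3 had 4 probe sets: 1426111_x_at gave 312.5 and 288.2 (-0.12), 1416898_a_at 100.7 and 74.6 (-0.43), 1435271_at 44.1 and 42.5 (-0.053), and 1438721_a_at 16.1 and 11.1, above the floor in control cells only. The 3 above the floor on both arrays were all lower in exposed cells, with a mean of -0.20 ± 0.20 (SD, 3 probe sets), and each lay within its like-level range. Irf5, a factor of macrophages and B cells, gave 68.2 and 56.4 with probe set 1460231_at (-0.27, range -0.75 to 0.66). Its second probe set, 1449678_at, went the other way, from 11.7, under the floor, to 21.0, at least 1.32-fold higher. The direction of Irf5 thus depended on the probe set, and averaging both with floored signals gave 0.064.

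**Figure D3:**
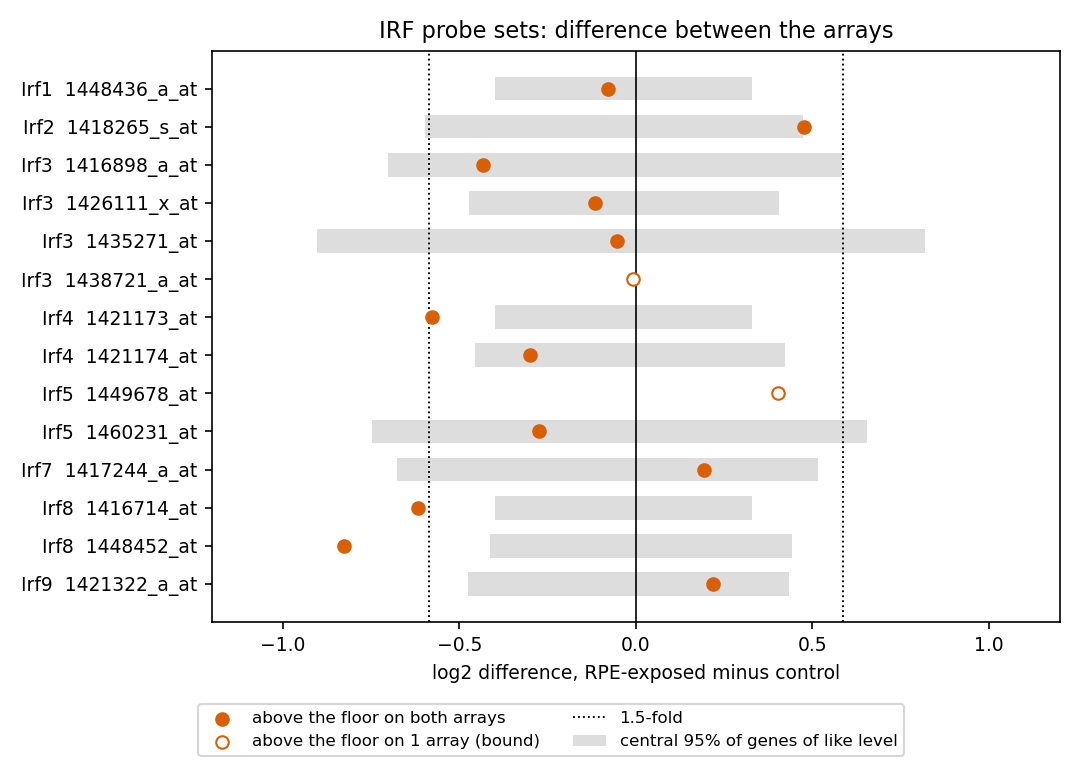
Log2 difference (RPE-exposed minus control) of each IRF probe set; grey bars give the central 95% of differences among genes of like level, dotted lines 1.5-fold, and open circles probe sets above the floor on 1 array, whose difference is a bound. Both Irf8 probe sets and Irf4 probe set 1421173_at lie to the left of their bars, and Irf2 lies at the right end of its bar.

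Genes of the pathways around the family were grouped into 9 lists, those upstream first. Over all genes compared, 3.16% were at least 1.5-fold higher and 3.89% lower. Like-level ranges of the list genes are given only in part. Of the genes named as at least 1.5-fold different, Spi1, Ticam1, Ifngr2, Ifit1, Oas2, Cxcl9 and Cxcl10 lay within their ranges. Of the interferon ligands, Ifng, the type II interferon, was 2.01-fold lower (1950.0 and 971.4). The 7 type I genes on the array that were not above the floor included Ifnb1 (9.6 and 12.9), and Ifnz, a type I gene, passed it in exposed cells only (13.1 and 25.5, at least 1.60-fold higher). Of 9 receptor and JAK kinase genes above the floor, 1 was 1.5-fold lower and none higher (median 0.018). The receptor chains for interferon-gamma parted, with Ifngr1, the ligand-binding chain, at 544.3 and 810.1 (0.57) and Ifngr2, the signalling partner, at 109.5 and 73.0, 1.5-fold lower and under that size in 5 of 9 alternative settings. Jak2, the kinase bound to Ifngr2, gave 780.4 and 529.3 (-0.56), and Ifnar1, a type I receptor chain, gave 247.2 and 326.9 (0.40).

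Genes that activate Irf3, Irf5 and Irf7 showed no common direction. Of 19 above the floor, 10 were positive, 1 was at least 1.5-fold higher and 1 lower (median 0.056). Tbk1, the kinase that phosphorylates IRF3, gave 650.3 and 681.1 (0.067). Tank, an adaptor that binds this kinase, gave 114.0 and 401.5 with probe set 1421640_a_at, 3.52-fold higher, but 79.6 and 71.5 (-0.15) with 1441513_at, so its direction rests on the choice of probe set. The adaptor gene Ticam1, which links TLR3 to IRF3, was 1.60-fold lower (70.4 and 44.1). The DNA sensor gene Cgas (-0.54) and the kinase gene Irak1 (-0.41) were negative, and Sting1, the adaptor downstream of Cgas, was positive (473.5 and 621.6, 0.39). Over all measured probe sets, Cgas gave -0.32 ± 0.30 (SD, 2 probe sets) and Irak1 -0.26 ± 0.18 (SD, 4 probe sets). Irak1 was at -0.0030 when probe sets whose names end in x, s or a were left out.

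The DNA-binding partners of IRF4 and IRF8 were mixed in direction. Of 20 partner genes measured, 12 had negative and 8 positive differences, with a median of -0.081 against -0.0096 over all genes. At 1.5-fold, 3 were lower, against 3.89% of all genes compared, and none was higher. The 3 were Jun, an AP-1 subunit (396.2 and 215.7, 1.84-fold), Spi1, encoding PU.1 (43.1 and 24.9, 1.73-fold), and Spib, its B-cell and plasmacytoid-cell relative (131.4 and 78.0, 1.68-fold). Of these, Spi1 did not leave the central 95% of genes at its level. An offset of 16 left 2 partners 1.5-fold lower, and a floor at the 75th percentile left 1. With the floor at the 25th percentile, or with none, 1 partner was 1.5-fold higher. Spi1 and Spib are made chiefly by myeloid cells and B cells, whose markers were mostly lower as given above, and the part of these cells was not tested. Batf, the AP-1 partner of IRF4 in Th17 cells, was nearly level at 569.3 and 553.4 (-0.041). Batf3 gave 0.41 (84.7 and 112.3), within its like-level range. Nfatc2 (0.40), Stat2, the ISGF3 subunit (165.9 and 191.2, 0.20), and Bcl6 (-0.38), the follicular helper regulator, lay within their like-level ranges. For Nfatc2 and for Bcl6, the probe sets differed in direction.

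Of the 12 measured genes that carry the T-cell receptor and NF-kappaB signals to Irf4, none differed by 1.5-fold with the probe set that stands for it, and the median was -0.012. Other probe sets of some genes differed more. Nfatc1 had 5 measured probe sets, 3 positive and 2 negative, at 0.26 ± 0.84 (SD). Among them, 1447085_s_at gave 16.6 and 51.0 (1.62) and 1447084_at gave 32.9 and 20.5 (-0.68), both with low signals. The 2 of Nfkb2 differed in direction, at 0.20 ± 0.69 (SD). With the probe sets that stand for the genes, the largest differences were those of Nfatc2 (0.40), Malt1, a protease of the NF-kappaB route (-0.36), and Prkcq, the T-cell protein kinase C theta gene (0.34). Nfatc2 had 3 measured probe sets, 2 positive and 1 negative, at 0.30 ± 0.44 (SD), and gave 0.13 with all its probe sets averaged. Among 11 IRF regulators, 3 were at least 1.5-fold lower, against 3.89% of all genes compared, and none was higher (median -0.16). These were Socs3 (1077.4 and 600.1, 1.80-fold) and Socs1 (368.8 and 224.6, 1.64-fold), feedback inhibitors of JAK kinases, and Swap70, a protein that binds IRF4 (327.7 and 182.6, 1.79-fold). Swap70 had 2 probe sets that agreed closely, at -0.85 ± 0.0037 (SD). The corepressor genes of IRF2 differed among themselves, at 0.55 for Irf2bpl with probe set 1454609_x_at but 0.12 with its other measured one, 1433468_at (57.2 and 62.0), -0.39 for Irf2bp1 and -0.16 for Irf2bp2, whose 4 probe sets gave -0.21 ± 0.23 (SD). Ptpn2, a phosphatase of JAK kinases, gave -0.32, but -0.073 when probe sets whose names end in x, s or a were left out.

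Target genes of the separate members went in different directions. Of 29 ISGF3 targets above the floor, 28 had positive differences, against 48.2% of all genes compared. At 1.5-fold, 9 were higher and none lower, against 3.16% and 3.89% of all genes. The median of the targets was 0.40, against 0.22 for Irf9, 0.20 for Stat2 and 0.19 for Irf7. The largest were the antiviral genes Rsad2 (18.5 and 50.3, 2.72-fold), Rtp4 (70.2 and 157.4, 2.24-fold) and Cmpk2 (29.7 and 64.0, 2.15-fold), followed by Xaf1 (1.99-fold), Mx1 (1.95-fold), Oas3 (1.63-fold), Ifit1 (1.59-fold), Oas2 (1.58-fold) and Zbp1 (1.53-fold). Oasl1 (0.58) and Parp9 (0.49) came next. Many of these signals were near the floor. Averaging all probe sets of a gene gave 0.60 for Rsad2 and 0.50 for Xaf1. Raising the floor to the 75th percentile of each array left 3 targets at least 1.5-fold higher, with a median of 0.26. In that setting 65 of 6737 genes compared were at least 1.5-fold higher.

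Targets of Irf1 parted into groups. Of 22 measured, 13 were positive, with a median of 0.037. At 1.5-fold, none was higher and 4 were lower, against 3.16% and 3.89% of all genes compared. The guanylate-binding protein genes Gbp6 (454.3 and 662.8, 0.54), Gbp3 (0.53) and Gbp7 (0.51) were the most positive. Ido1, a tryptophan-degrading enzyme (59.6 and 25.8, 2.31-fold), Socs1, and the chemokine genes Cxcl9 (45.8 and 30.0, 1.53-fold) and Cxcl10 (131.7 and 86.4, 1.52-fold) were lower. These 3 besides Socs1 are also made by antigen-presenting cells, whose markers were mostly lower, and the part of these cells was not tested. The count of lower targets ran from 1 to 5 over the other settings.

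Genes that depend on Irf4 in helper T cells were mostly lower: of 16 above the floor, 12 were negative, with a median of -0.38. At 1.5-fold, 6 were lower, against 3.89% of all genes compared, and 1 was higher, against 3.16%. The lower ones were the cytokine genes Il13 (4.14-fold), Il17a (814.9 and 233.0, 3.50-fold), Il4 (99.6 and 35.6, 2.80-fold) and Il21 (1.97-fold), with the transcription factor genes Ahr (2.36-fold) and Gata3 (1.74-fold). Their log2 differences ran from -2.05 to -0.80, against -0.58 and -0.30 for the Irf4 probe sets. The higher gene was Il10 (140.6 and 237.3, 1.69-fold). Prdm1, encoding Blimp-1, was positive (0.41), and Il5 (-0.45) and Ccr6 (-0.39) were negative, each within its like-level range. A floor raised to the 75th percentile gave a median of -0.090, with Il4 at -0.14 and Il13 under the floor on both arrays. It left 4 genes at least 1.5-fold lower, beside 94 of 6737 over all genes compared.

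**Figure D4:**
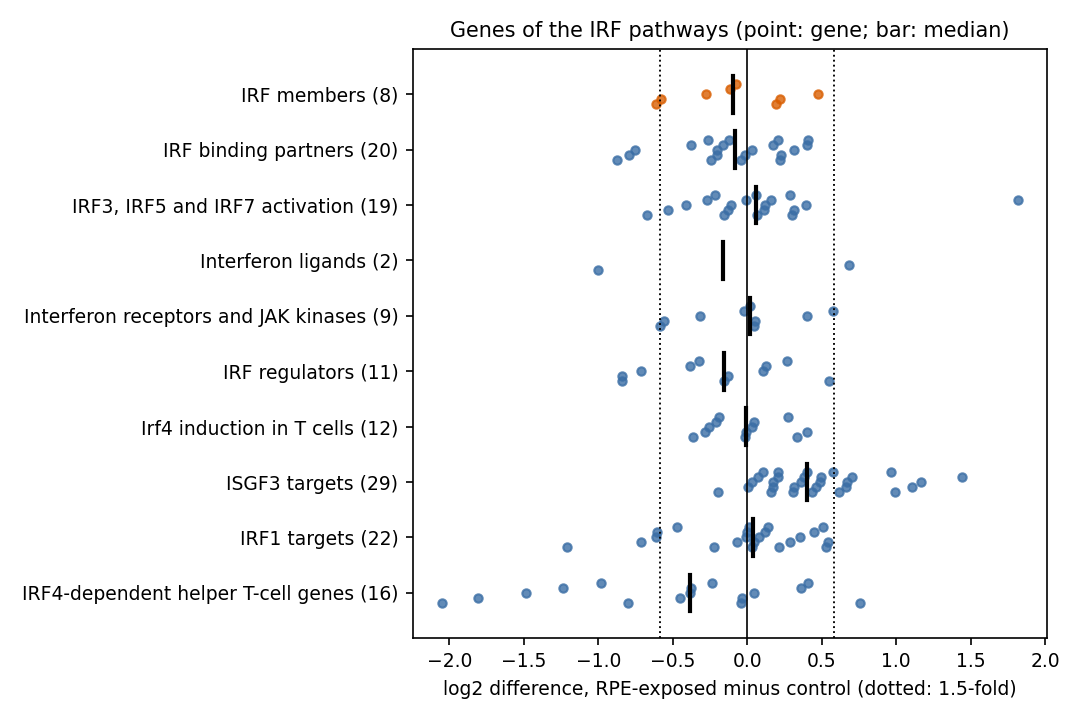
Log2 difference (RPE-exposed minus control) of the 8 IRF members and of genes in 9 lists from the IRF pathways; each point is a gene measured on either array, black bars are medians, dotted lines are 1.5-fold, and the number of genes is in parentheses. ISGF3 targets lie almost wholly to the right of 0 (median 0.40) and genes dependent on Irf4 mostly to the left (median -0.38), while the IRF members themselves spread from -0.62 to 0.48.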

How the data were processed

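Total RNA of T cells was labelled with biotin, per the labels, and hybridised to 1-colour arrays. The deposited values are linear intensities per probe set, already near a common scale (trimmed mean 100.00 on both arrays, without 2% at each end), and the summarization software is not given in the sources used here. Of 45101 probe sets, 64 were manufacturer's controls and 34945 others named exactly 1 gene in the platform annotation. Log2 signals were computed here in pandas 2.3.3 and numpy 2.4.6 (Python 3.11.15), and figures with matplotlib 3.10.9. Signals under the array median were set to it, and where a gene had several probe sets, that of highest mean over both arrays on this scale stood for it. Like-level ranges used 20 bins of mean level. The steps were tested on simulated data. There was no further normalization in the main setting and no test, since each group had 1 array. Named genes were all members and, in each list, up to 8 genes at least 1.5-fold different, the 3 next by size, and Batf, Spi1, Spib, Stat2, Ifng, Tbk1 and Irf2bp2; markers named by rule were Cd3e, Cd79a, Csf1r, Itgax, Ncr1, Rpe65 and Tyrp1. Other markers (Nkg7, Eomes, Tyrobp, Lyz1, Lyz2, Flt3, Adgre1, Jchain, Mzb1, Sdc1, the class II genes and genes given as under the floor) were named after their values were seen. Of 237 list entries, 30 are not analysed here. The members and lists were chosen with earlier results of these data known. Alternatives covered the floor, an offset, scaling and the choice of probe sets.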

Additional observations from a re-analysis of the deposited data

How the results depend on the processing

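Irf8 was lower in all 9 alternatives, from -0.72 to -0.60, and Irf4 in all 9, from -0.60 to -0.44. With quantile normalization Irf4 passed 1.5-fold as well, so that 2 members were counted as lower, and in the other 8 alternatives the count was 1. No member was 1.5-fold higher or 2-fold different in any of them. Irf2 ran from 0.42 to 0.51. Irf5 changed sign when its probe sets were averaged (0.064). With probe sets of suffix x, s or a removed, 4 members were measured, all negative. Irf1 and the positive members Irf2, Irf7 and Irf9 have only such probe sets and so dropped out. Of 30 named pathway genes at least 1.5-fold different, 17 stayed so in every alternative that measured them, and Tank reversed to -0.15 under that choice. Over all genes, those at least 1.5-fold higher and lower numbered 348 and 429 in the main setting, 1675 and 1569 for a floor lowered to the 25th percentile, 65 and 94 for the 75th, 2822 and 2620 with no floor, and 213 and 286 with probe sets averaged. Signals near the floor limit Irf5, Rsad2 and Il13. No paired analysis was possible because each group holds a single array.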
